A study of Peromyscus californicus with 17 samples.

Results

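The expression of 9 elastic fibre genes, Eln, Fbn1, Fbln1, Fbln5, Lox, Loxl1, Loxl2, Ltbp4 and Mfap4, was followed in the lungs of 17 male P. californicus, a monogamous deer mouse. The genes were taken by their symbols from a table of 27786 genes, in which each of the 9 occurs once. RNA sequencing of whole lung gave 1 library per animal for bonded (B1 to B6, n = 6), bond-disrupted (BD1 to BD6, n = 6) and virgin (V2 to V6, n = 5) males. All were of stock IS, genetically diverse, and 12 to 15 months old. Bonded males had lived with a female for about 4 months. Bond-disrupted males had been paired as long and were then separated, and their lungs were taken on day 7. Virgins were of similar age and were housed in groups of males, 3 to a cage in the labels and 2 or 3 elsewhere in the text on the study. Pairing and housing thus changed together in that group and cannot be told apart. In bond-disrupted males the loss of the partner and the change of cage company came together, and cannot be told apart either. The study describes its bond-disrupted serum donors as housed alone, and does not state this for the lung donors. Animals with the same number are siblings or, for some virgins, cousins, and the labels name no drug, transgene or mutation.

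Elastic fibres give the lung its recoil. They consist of a core of cross-linked elastin laid down on a scaffold of fibrillin microfibrils, and fibulins carry the elastin precursor and the cross-linking enzymes to that scaffold. Lysyl oxidases oxidise lysines of elastin and collagen so that the chains can be joined, and latent TGF-beta binding proteins sit on the same microfibrils. In the lung these proteins come from fibroblasts, smooth muscle, mesothelial and endothelial cells, and elastin itself turns over very slowly once the alveoli have formed.

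The deposited values are FPKM, reads per kilobase of gene and per 1000000 reads, but each was divided by the length of another gene. The first column used the length of the gene 1 row above, the second that of the gene a row further up, and so on to 17 rows in the last column. For Eln, whose own length came out as 2366 bases, the divisor was the 3530 bases of Limk1 in B1 and 104 bases of a small RNA gene in V4. The reads behind each value were recovered from the requirement that they be whole, and FPKM was computed again with each gene's own length. All 153 values of the 9 genes were settled this way. Of these, 0 missed a whole read by more than 0.004 reads plus a small margin that grew with the read count. The lengths were chosen to make the reads whole, so this count is no independent check. The ratio of the highest to the lowest animal fell from 60.3 to 3.33 for Eln, from 129.5 to 1.83 for Fbln5 and from 99.6 to 3.16 for Lox. All values below are FPKM with own lengths.

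**Figure D1:**
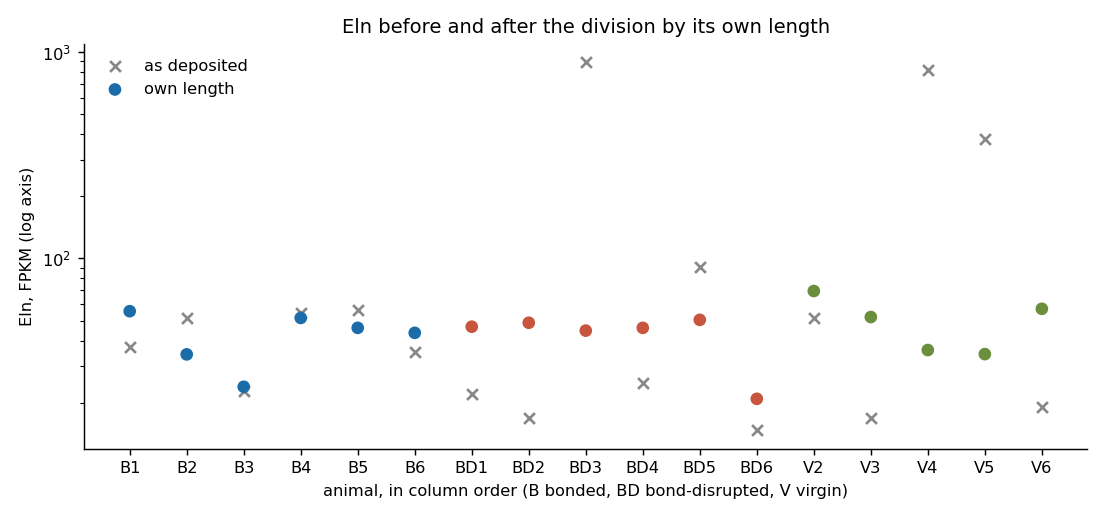
Eln in each animal, in FPKM on a log axis. Crosses are values as deposited, and filled points are the same reads divided by the length of Eln itself (blue bonded, red bond-disrupted, green virgin). The crosses for BD3, V4 and V5 stand at 889, 820 and 379, while the points for these animals lie at 44.7, 36 and 34.4.

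Depth, in units of 1000000 reads and known up to a factor of 2, was 30.8 to 68.2 in bonded animals, 43.9 to 59.4 in bond-disrupted animals and 38.0 to 44.9 in virgins. At this depth the least expressed member, Loxl2, still had 950 to 1910 reads per animal, so counting error was small beside the spread between animals. The label lung was checked against summed marker genes. The 7 lung epithelial markers that could be used summed to between 76444 and 196256 FPKM, the 7 cartilage markers to between 4.99 and 25.1 FPKM, with Acan and Col9a1 under 0.1 FPKM on average, and the 6 cardiac muscle markers to between 39.8 and 433 FPKM. Because whole lung was sequenced, fewer cells of a type and less RNA per cell cannot be told apart in any value given here.

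Mfap4 stood far above the other members. Mfap4, which encodes a microfibril-associated glycoprotein that binds elastin and collagen, averaged 2913 FPKM ± 596 (SD, n = 17) and ranked as number 5 of 25196 genes. It made up 78.3% to 90.9% of the summed FPKM of the 9 genes (median 89.3%). Ltbp4, the latent TGF-beta binding protein that also helps elastin assembly, followed at 158 FPKM ± 24.1, and Mfap4 exceeded it in 17 of 17 animals by 7.47 to 25.1 times.

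Fbln5, which tethers elastin and Loxl1 to the microfibril, averaged 66.1 FPKM ± 11.2. Loxl1, the lysyl oxidase most tied to elastin, averaged 51.4 ± 10.4 and was below Fbln5 in 16 of 17 animals. Eln averaged 44.8 ± 12.1 (all SD, n = 17) and was below Loxl1 in only 12 of 17 animals, so these neighbours in the order were not separated. Lox, the founding lysyl oxidase, averaged 15.9 ± 4.88, under Eln in all 17 animals. Fbln1, a fibulin of microfibrils and vessel walls, averaged 12.9 ± 3.66 and Fbn1, the main fibrillin of adult microfibrils, 12.3 ± 2.52. Lox exceeded Fbln1 in 14 of 17 animals and Fbln1 exceeded Fbn1 in 10, so the order of these 3 varied from animal to animal. Loxl2, which acts mainly on collagen, was lowest at 5.23 ± 0.957 and lay under Fbn1 in every animal.

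**Figure D2:**
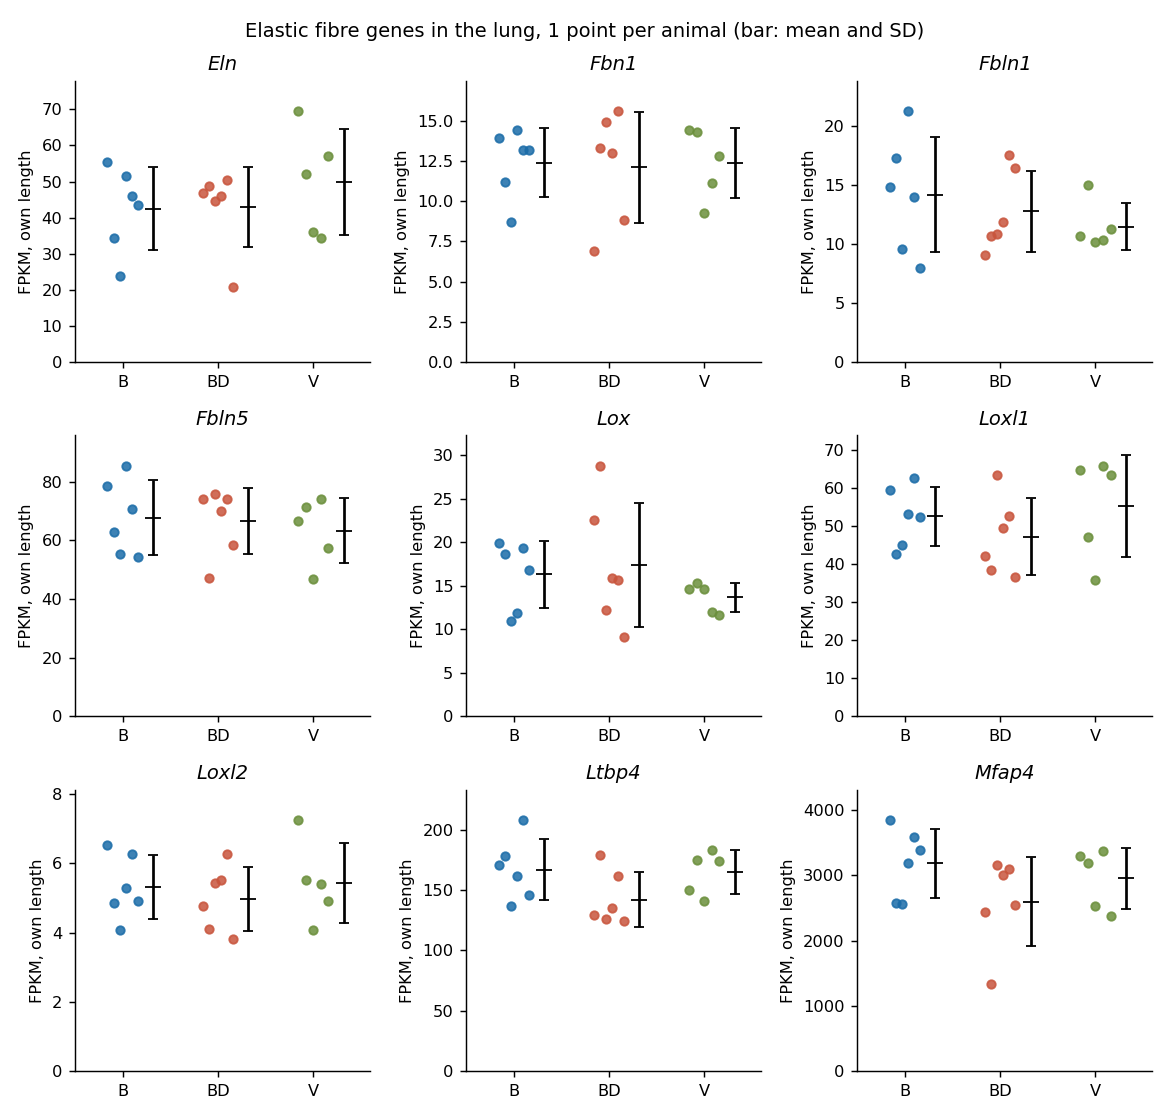
FPKM with own lengths of each of the 9 genes, 1 point per animal, in bonded (B, n = 6), bond-disrupted (BD, n = 6) and virgin (V, n = 5) males. Bars beside the points give mean and SD. The 3 groups overlap in every panel, with BD6 low for Eln at 20.9 and BD2 low for Mfap4 at 1337.

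The first question was whether the loss of a partner was accompanied by a change in these genes. Comparisons used limma on log2(FPKM + 1) with all 3 groups in one fit, and a gene was called at an adjusted p under 0.1 and a change of at least 2-fold. None of the 9 genes was called between bond-disrupted and bonded animals. The same fit called 0 of all 14952 genes tested (percent called 0), as did limma's voom on the recovered reads. At an unadjusted p under 0.05, limma counted 0 of the 9 genes, against 876 of all genes (5.86%), and voom 1081 of 17195 genes. The count of members at this p was 1 (Ltbp4) when families were fitted as blocks, with 5.61% of all genes, and 2 (Ltbp4 and Mfap4) with quantile normalization, with 5.41%. Ltbp4 also passed it when B3, B6, BD2 or BD5 was left out, in fits with 5.02% to 7.80% of all genes at this p. Of the members 7 were lower and 2 higher in bond-disrupted animals, while 47.9% of all genes were lower. The median difference of the 9 was -0.08 and that of all genes 0.01, in log2 units.

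Mfap4 and Ltbp4 had the largest of these differences. In bonded animals Mfap4 ran from 2565 FPKM (B3) through a median of 3286 to 3851 (B1). In bond-disrupted animals it ran from 1337 (BD2) through 2777 to 3158 (BD3). BD2 was far below every other animal, and the remaining bond-disrupted animals lay within or just under the bonded range. Mean levels were 2598 ± 686 and 3191 ± 530 (SD, n = 6 each), a log2 difference of -0.33 with a 95% interval from -0.73 to 0.06 (limma adjusted p = 0.866). Without BD2 the difference was -0.15, and with quantile normalization of all animals it was -0.50. Mfap4 was lower in the bond-disrupted sibling in 5 of 6 sibling pairs.

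Ltbp4 ran from 137 (B3) through 166 to 208 FPKM (B5) in bonded animals, and from 124 (BD6) through 132 to 179 (BD2) in bond-disrupted animals. In 4 bond-disrupted animals it lay below the lowest bonded animal, and in BD2 and BD5 it did not. The log2 difference was -0.23 (95% interval -0.47 to 0.01, limma adjusted p = 0.857), and the upper bound of its interval was nearer to 0 than that of any other member. It was lower in the bond-disrupted sibling in 5 of 6 pairs, and with the family number as a block limma gave an adjusted p of 0.862.

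Smooth muscle markers had a lower median sum in bond-disrupted animals, and their part in the differences of Mfap4 and Ltbp4 was not tested. The 9 usable markers had a median sum of 940 FPKM in bonded animals (range 578 to 1356), against 722 in bond-disrupted animals (range 354 to 1136) and 800 in virgins (range 563 to 952). BD2, the lowest animal for Mfap4, had the highest sum of its group (1136). The median log2 difference of the 9 markers between bond-disrupted and bonded animals was -0.40, and 0 of 9 were called. At an unadjusted p under 0.05 limma counted 2 of 9 lower, Actg2 and Synpo2 (each -0.52, named after their values were seen), against 3.02% of all genes. Tagln, the highest of them, averaged 277 ± 108 in bond-disrupted and 340 ± 95.4 in bonded animals.

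Elastin itself differed less. In bonded animals Eln ran from 23.9 FPKM (B3) through 44.8 to 55.5 (B1), and in bond-disrupted animals from 20.9 (BD6) through 46.4 to 50.4 (BD5). In the bond-disrupted group 5 animals lay between 44.7 and 50.4, and BD6 stood alone at less than their lowest value. Means were 42.9 ± 11 and 42.5 ± 11.6 (SD, n = 6 each), a log2 difference of 0.01 (95% interval -0.50 to 0.52, limma adjusted p = 0.998). Without BD6 the difference was 0.20, and without B3 it was -0.14.

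The cross-linking enzymes gave small differences of either sign. Loxl1 averaged 47.1 ± 10.1 in bond-disrupted and 52.5 ± 7.80 in bonded animals, and the bond-disrupted sibling was lower in 5 of 6 pairs. Its log2 difference was -0.17 (95% interval -0.51 to 0.18). Lox averaged 17.4 ± 7.14 and 16.3 ± 3.90 in the same order, with the widest range in the bond-disrupted group, from 9.11 in BD6 to 28.8 in BD2. Loxl2 averaged 4.98 ± 0.924 and 5.32 ± 0.929. In bonded animals Loxl2 ran from 4.07 (B3) through 5.10 to 6.54 (B1), and in bond-disrupted animals from 3.81 (BD6) through 5.09 to 6.26 (BD5). The medians were nearly equal and the ranges overlapped almost wholly.

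The fibrillin and the fibulins likewise stayed within their spread. Fbn1 ran from 8.69 FPKM (B3) through 13.2 to 14.4 (B4) in bonded animals and from 6.92 (BD1) through 13.1 to 15.6 (BD5) in bond-disrupted animals, whose range enclosed the bonded one. Fbln5 ran from 54.2 (B6) through 66.7 to 85.5 (B4) and from 47.3 (BD2) through 72.0 to 75.8 (BD3). Fbln1 was the most variable of them in bonded animals, from 7.99 (B6) through 14.4 to 21.3 (B4), against 9.07 (BD1) through 11.4 to 17.6 (BD5). Log2 differences were -0.07 for Fbn1, -0.11 for Fbln1 and -0.02 for Fbln5, and each was lower in the bond-disrupted sibling in 3 of 6 pairs.

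The second question was whether animals that had never been paired differed from bonded ones. Between virgin and bonded animals limma called 0 of the 9 genes and 0 of 14952 (percent called 0), with 0 members and 542 genes (3.62%) at an unadjusted p under 0.05. Of the members 3 were higher and 6 lower in virgins, while 48.0% of all genes were lower. Eln was 69.5 FPKM in V2, 52.0 in V3, 36 in V4, 34.4 in V5 and 57.0 in V6. V2 was the highest of all animals, and V4 and V5 lay low in the bonded range. The log2 difference of Eln was 0.22 (95% interval -0.31 to 0.76, limma adjusted p = 1). It was 0.07 without B3 and 0.34 without V5.

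Lox was narrowly spread in virgins, at 14.6 FPKM in V2, 15.3 in V3, 14.6 in V4, 12 in V5 and 11.7 in V6. All of these values lie inside the bonded range of 11 to 19.9, and the log2 difference was -0.21 (95% interval -0.69 to 0.28). Fbln1 was 10.2 to 11.3 in 4 virgins and 15 in V3, with a log2 difference from bonded animals of -0.23 (95% interval -0.68 to 0.23). Mfap4 (-0.11), Fbln5 (-0.10), Ltbp4 (-0.02), Loxl2 (0.02) and Loxl1 (0.05) differed by less in log2 units.

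The third comparison set virgins, housed in groups, against bond-disrupted animals, separated from their partner. Both lived without a female, but their housing differed as well. Again limma called 0 of the 9 genes and 0 of 14952 (percent called 0), and 0 members against 631 genes (4.22%) had an unadjusted p under 0.05. Ltbp4 passed that p with quantile normalization (3.96% of all genes) or without BD2 or V4 (7.12% and 4.95%), and Loxl1 without V4. Of the members 6 were higher and 3 lower in virgins, with 48.6% of all genes lower. Ltbp4 was 150 FPKM in V2, 175 in V3, 141 in V4, 183 in V5 and 174 in V6, against a bond-disrupted median of 132. The value of V6 was the least secure of these, since other genes on its divisor had a median deviation of 0.3 in log2 units. With an additive diagonal term Ltbp4 in V6 was 150. The groups overlapped, since BD2 reached 179, and the log2 difference was 0.21 (95% interval -0.04 to 0.47, limma adjusted p = 0.947).

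Mfap4 was 3305 FPKM in V2, 3192 in V3, 2530 in V4, 3373 in V5 and 2378 in V6. Its log2 difference from bond-disrupted animals was 0.23 (95% interval -0.19 to 0.64). It was 0.05 without BD2 and at most 0.31 under the alternatives other than the deposited values. Eln differed by 0.21, by 0.02 without BD6 and by 0.33 without V5. Loxl1 was 64.7 in V2, 47.0 in V3, 35.7 in V4, 65.8 in V5 and 63.4 in V6, which put V4 below and V2 and V5 above every bond-disrupted animal, and its log2 difference was 0.22 (95% interval -0.14 to 0.58). Bond-disrupted animals stand in both this comparison and the first, so the values of Ltbp4 and Mfap4 in the 2 comparisons share those samples.

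Across the 3 comparisons every 95% interval of the 9 genes lay between -0.73 and 0.76 in log2 units, so none reached a 2-fold change in either direction. The standard errors of these differences lay between 0.12 and 0.25. For 0 of the 9 genes were the values of the compared groups free of overlap, against 0.274%, 0.488% and 0.268% of all genes tested in the comparisons in the order given.

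**Figure D3:**
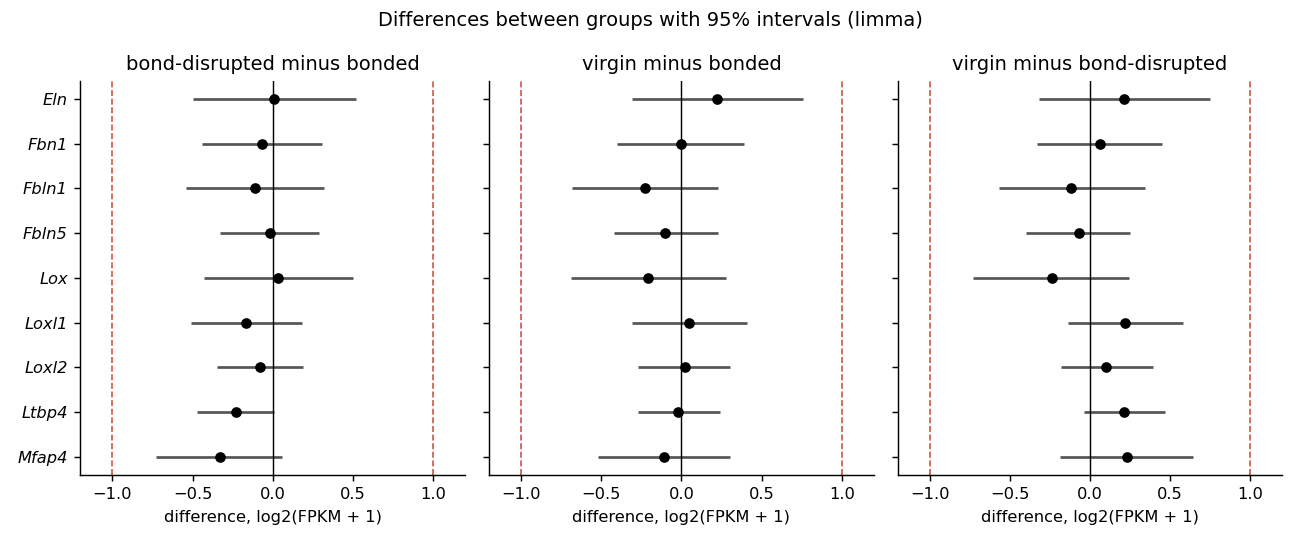
Difference of each gene between groups in log2(FPKM + 1), with 95% intervals from limma, for bond-disrupted minus bonded, virgin minus bonded and virgin minus bond-disrupted animals. Dashed lines mark 2-fold. Every interval stays inside the dashed lines and includes 0, with Mfap4 (-0.33) and Ltbp4 (-0.23) lowest in the first panel.

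The spread within groups was larger for several members than for most genes. Over the 13281 tested genes that averaged 100 reads or more, the median within-group SD was 0.190 in log2 units. It was 0.446 for Eln, above 90.5% of these genes, 0.405 for Lox (87.9%), 0.376 for Fbln1 (85.7%) and 0.341 for Mfap4 (82.6%). Ltbp4 at 0.203 (54.4%) and Loxl2 at 0.230 (62.6%) varied as much as a typical gene.

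The animals at the extremes were often the same for several members. BD6 was among the 3 lowest animals for 6 of the 9 genes, and was the lowest of all for Eln, Lox, Loxl2 and Ltbp4. B3, the most deeply sequenced library, was among the 3 lowest for 5 genes, BD1 for 4, and BD2 and V4 for 3. B1 was among the 3 highest for 5 genes and V2 for 4. BD2 was mixed, with the lowest Mfap4 and the highest Lox of all animals. BD6 also had the lowest sums of fibroblast (2933 FPKM), smooth muscle (354) and endothelial markers (688) and the highest sum of cartilage markers (25.1), and the part of these in its values was not tested.

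To see which members rose and fell together from animal to animal, all 36 pairs were correlated on log2(FPKM + 1) over the 17 animals. The pairs had a median Pearson r of 0.35, 31 of 36 were above 0, and 9 had an adjusted permutation p under 0.05. Loxl2 took part in 5 of these 9. It correlated with Loxl1 (Pearson r = 0.77, Spearman coefficient 0.72, permutation p = 0.00031, adjusted p = 0.0112), Eln (r = 0.72, Spearman 0.63, adjusted p = 0.013), Mfap4 (r = 0.69, Spearman 0.75, adjusted p = 0.013), Fbln5 (r = 0.68, Spearman 0.60, adjusted p = 0.0191) and Fbn1 (r = 0.66, Spearman 0.74, adjusted p = 0.0194). With all 13378 other genes of at least 1 FPKM on average, the median r of Loxl2 was 0.00, and the 5 members ranked between 45 (Loxl1) and 253 (Fbn1) in likeness to it.

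Each pair was also computed without the 2 animals farthest from the median of its first-listed gene, so the animals left out differed between pairs. For Loxl2, r was then 0.67 with Loxl1 (without BD6 and V4) and 0.56 with Eln (without B3 and BD6). Its r was 0.74 with Mfap4 (without BD6 and V2), 0.55 with Fbln5 (without BD2 and V4) and 0.71 with Fbn1 (without B3 and BD1). The permutation p, adjusted again over 36 pairs, was then 0.0126 for Mfap4 and 0.0314 for Fbn1. Loxl1 (0.0617), Eln (0.165) and Fbln5 (0.165) did not pass, each in its own set of 15 animals. Within bonded animals the same r were 0.86, 0.86, 0.87, 0.70 and 0.78, and within bond-disrupted animals 0.83, 0.65, 0.66, 0.76 and 0.57 (n = 6 each), so each pair had the same sign in both groups. Deviations from the group means gave 0.76, 0.73, 0.68, 0.72 and 0.66.

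The other 4 pairs were Loxl1 with Mfap4 (r = 0.63, Spearman 0.62, adjusted p = 0.0191), Fbn1 with Loxl1 (r = 0.59, Spearman 0.51, adjusted p = 0.0472), Fbln5 with Mfap4 (r = 0.66, Spearman 0.51, adjusted p = 0.0191) and Eln with Fbn1 (r = 0.65, Spearman 0.62, adjusted p = 0.0273). Without the 2 farthest animals, BD6 and V4, Loxl1 with Mfap4 stayed past the threshold (r = 0.67, adjusted permutation p = 0.0314). Fbn1 with Loxl1, without B3 and BD1, had the same r of 0.59 but an adjusted permutation p of 0.135. Eln with Fbn1 dropped to r = 0.46 (adjusted permutation p = 0.313) without B3 and BD6, and Fbln5 with Mfap4 to 0.49 (adjusted permutation p = 0.27) without BD2 and V4. Eln with Fbn1 was 0.98 within bonded and 0.44 within bond-disrupted animals. Leaving out B3 or BD6 lowered the number of pairs past the threshold from 9 to 6.

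These permutations exchange all 17 animals and so ignore that animals with the same number are relatives. A test added later subtracted family means and permuted values only among relatives, over all 15552 arrangements. The 9 pairs then had r of 0.60 to 0.81, and 8 of them had an unadjusted exact permutation p under 0.05, but only Eln with Fbn1 passed the adjustment over 36 pairs (r = 0.79, exact permutation p adjusted to 0.0139). Eln with Loxl2 and Fbn1 with Loxl2 missed it at 0.0502 (exact permutation, adjusted).

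Lox, Ltbp4 and Fbln1 had no pair past the threshold. Lox, an enzyme of the same family as Loxl1 and Loxl2, had r of -0.17 with Loxl1, 0.16 with Loxl2 and -0.32 with Mfap4, and 0.44 with Eln (adjusted p = 0.197). Its r with Mfap4 was 0.51 within bonded and -0.69 within bond-disrupted animals, the latter with BD2 at the low end of Mfap4 and the high end of Lox, and 0.15 without BD2 and BD6. Fbln1 was nearest to Fbln5 (r = 0.48, adjusted p = 0.161), with 0.85 within bonded and -0.00 within bond-disrupted animals.

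**Figure D4:**
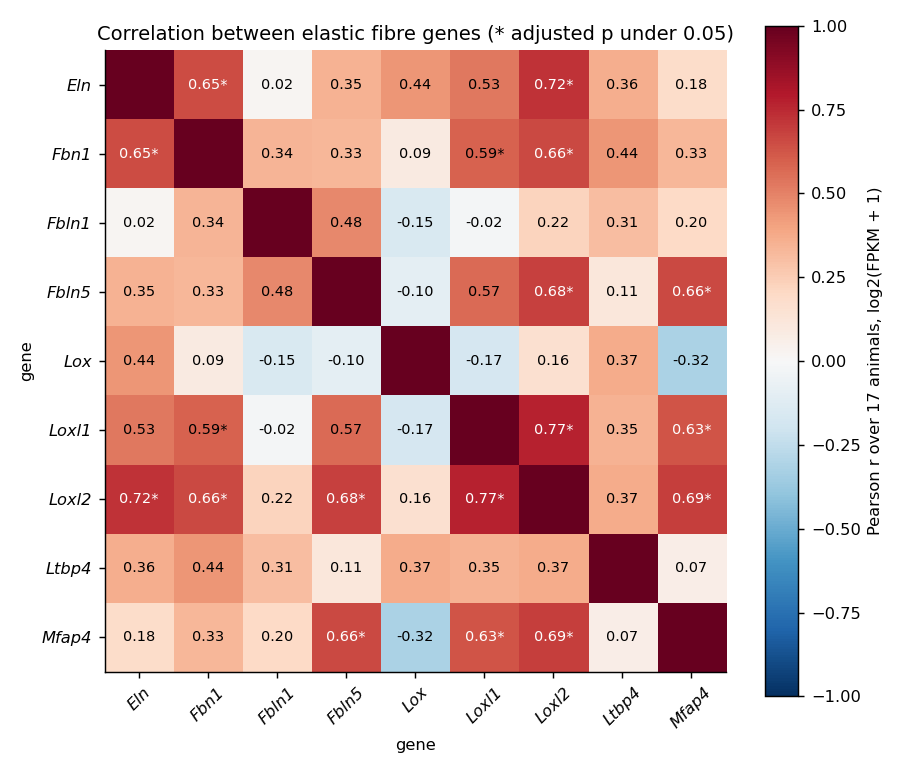
Pearson r between each pair of the 9 genes over 17 animals, on log2(FPKM + 1), from blue (negative) to red (positive). Stars mark the 9 pairs with an adjusted permutation p under 0.05. The row of Loxl2 holds 5 of the stars, and the rows of Lox, Fbln1 and Ltbp4 hold none.

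**Figure D5:**
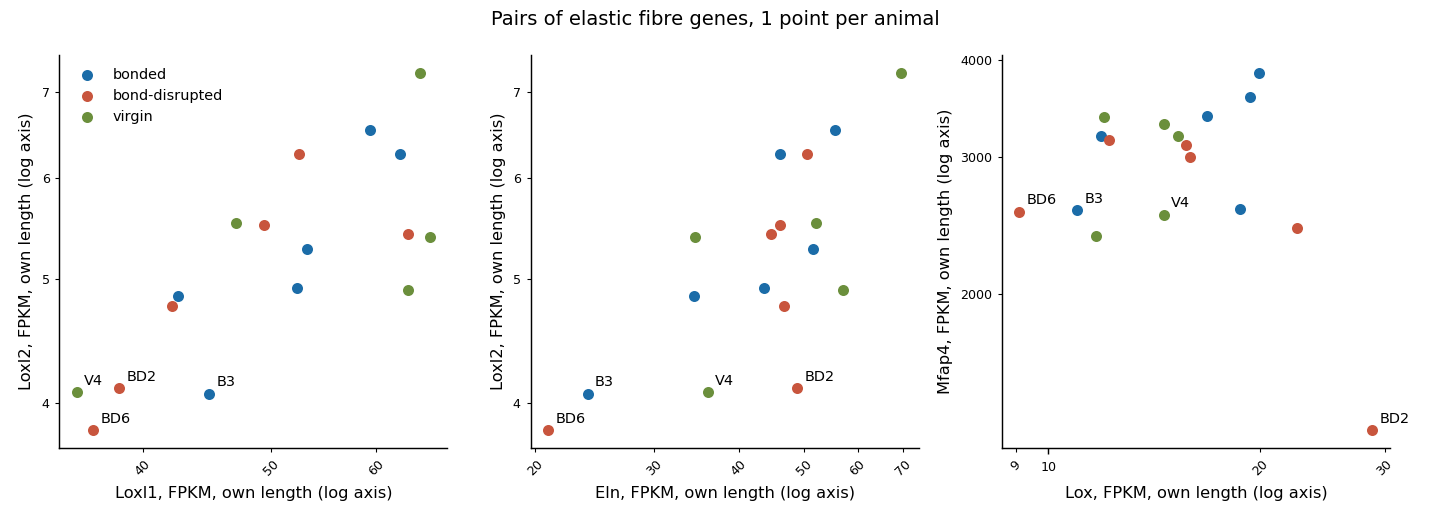
FPKM with own lengths of 3 pairs of genes, 1 point per animal, on log axes, coloured by group. Loxl2 rises with Loxl1 (r = 0.77) and with Eln (r = 0.72), with BD6, B3, V4 and BD2 at the low end for Loxl2. In the third panel, Mfap4 against Lox (r = -0.32), BD2 lies apart at 28.8 for Lox and 1337 for Mfap4.

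The genes most like Eln across animals were sought among all 13378 others. The 5 nearest outside the members were Efnb1, a membrane-bound ephrin (r = 0.87), Ppm1f, a protein phosphatase (0.84), Arhgap24 (0.84), Gja5, the connexin of arterial endothelium (0.83), and Pdgfrb, the receptor of pericytes and other mural cells (0.83). They averaged 21.6, 28.0, 9.25, 43.2 and 48.1 FPKM, and their Spearman coefficients with Eln were 0.77, 0.88, 0.74, 0.70 and 0.78. Among the members Loxl2 came nearest, at rank 84, followed by Fbn1 at 246, and Fbln1 was at 6975. These r were chosen as the highest of many and carry no test.

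Eln was also set against the summed markers of 7 cell types, a comparison added after the values were seen. With endothelial markers r was positive (r = 0.73, Spearman 0.89, permutation p = 0.00148, adjusted p over 7 lists = 0.0104), and r was 0.63 without B6 and BD6 and 0.56 without BD6. Permuted only among relatives with family means subtracted, r was 0.74 and the exact permutation p, adjusted over 7 lists, was 0.168, so this call did not hold once families were respected. Within bonded animals r was 0.33 and within bond-disrupted animals 0.94 (n = 6 each). With fibroblast markers r was 0.54 (adjusted p = 0.1) but 0.19 without BD6, and with smooth muscle markers 0.44 (adjusted p = 0.182) but 0.06 without BD6. With lung epithelial markers it was 0.06. A single gene carries most of some sums, Scgb1a1 of club cells in the epithelial list (group means of 84306 to 105427 FPKM) and Inmt in the fibroblast list (2667 to 2942). Those r may therefore describe mainly that gene, and its part in them was not tested. Each r compares whole-lung samples, in which both the Eln level and the marker sum depend on the mix of cells.

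The remaining genes of the pathway were examined by role. Of 21 further fibrillins, fibulins, microfibril and LTBP genes 18 could be tested, and 0 were called in any comparison. Their median log2 differences were -0.01 for bond-disrupted and 0.07 for virgin against bonded animals, and 0.06 for virgin against bond-disrupted. At an unadjusted p under 0.05 limma counted 2 lower of 18 in bond-disrupted against bonded animals, beside the same 3.02% of all genes. These were Ltbp2, a microfibril protein close to Ltbp4 in sequence (7.85 ± 1.85 against 10.8 ± 2.01 FPKM, SD, n = 6 each, limma adjusted p = 0.818), and Ltbp3, which carries latent TGF-beta (37.6 ± 4.50 against 43.9 ± 5.49, limma adjusted p = 0.848), named after their values were seen. In virgin against bond-disrupted animals 1 of 18 passed that p, Ltbp2 (higher by 0.34 in log2 units, limma adjusted p = 0.947), beside 4.22% of all genes. Lgals3bp, a secreted glycoprotein of the matrix, was the highest of this list at 92.2 to 122 FPKM in the group means.

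Of 6 other lysyl oxidases, copper carriers and procollagen proteinases, all 6 were tested and 0 were called, and Atox1, the copper chaperone, was highest at 63.9 ± 5.32, 61.4 ± 10.5 and 54.1 ± 5.39 FPKM in bonded, bond-disrupted and virgin animals. Atox1 was the 1 of 6 at an unadjusted p under 0.05, in virgin against bonded animals (log2 difference -0.24, limma adjusted p = 1), beside 3.62% of all genes. Of the proteases that degrade elastin 5 of 11 were tested and 0 called, with Ctss, the elastolytic cathepsin of macrophages, highest at 39.9 to 44.5 FPKM in the group means. Of their inhibitors 5 of 7 were tested and 0 called, with Timp3, a matrix-bound inhibitor, highest at 241 ± 39.3, 225 ± 16.9 and 236 ± 36.3. Of 13 TGF-beta ligands, receptors and activators all were tested and 0 called, and Tgfb1, the ligand that Ltbp proteins hold latent, averaged 82.1 ± 17.4, 77.4 ± 15.7 and 80.0 ± 8.14. Over these 4 lists the medians lay between -0.04 and 0.15 in log2 units, against 0.00 to 0.01 for all genes. Of the usable markers of fibroblasts (13), smooth muscle (9), mesothelium (3), endothelium (8) and lung epithelium (7), 0 were called in any comparison. At an unadjusted p under 0.05, outside smooth muscle, limma counted 1 of 7 epithelial markers, Sftpb, higher in bond-disrupted (0.43) and virgin animals (0.39) than in bonded ones, and 1 of 13 fibroblast markers, Dpt, higher in virgins than in bonded (0.69) and bond-disrupted animals (0.66), all in log2 units and named after their values were seen. The shares of all genes at that p were 5.86% for bond-disrupted against bonded, 3.62% for virgin against bonded and 4.22% for virgin against bond-disrupted animals.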

How the data were processed

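RNA-seq of whole lung was analysed for 17 animals, grouped by the sample labels. The authors deposited FPKM, 1 column per animal, with 0 columns left over. The submitters' processing notes name FastQC, Trim Galore 0.4.5, STAR 2.7.2, SAMtools 1.5, featureCounts and Subread 1.5.3, and the genome build is not given in the sources used here.

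Because column j held the reads divided by the length of the gene j rows above, depths and lengths were solved as the values that make FPKM times length times depth whole. Small RNA genes with lengths in RefSeq (ASM782708v3, matched by symbol for 27786 of 27786 genes) set the scale. Of 27787 lengths 26416 were settled, and 25196 genes had all values. Of 348549 values, 98.5% were whole within 0.004 reads plus a small margin that grew with the read count. The median SD of log2 FPKM fell from 1.54 to 0.226 over the 13665 genes averaging 100 reads or more. The median deviation of the other genes that share a divisor with a member was at most 0.3 in log2 units, and single genes can deviate by more. Divisors with a median deviation above 0.5 were in general not settled, so this bound was partly set in advance. Most values below 50 reads were even (86.4%), so depth is known up to a factor of 2, which leaves FPKM as it is.

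Genes reaching 1 FPKM in any animal entered limma 3.58.1 (R 4.3.3) on log2(FPKM + 1), with 3 groups in one fit, two-sided tests and Benjamini-Hochberg adjustment over all genes within each comparison. A fold change is on this scale and understates changes of low genes. Correlations used 100000 permutations, two-sided, adjusted over 36 pairs, and exact permutations within families, using pandas 2.3.3, scipy 1.17.1 and numpy 2.4.6 under Python 3.11.15, with numba 0.67.0 and matplotlib 3.10.9. The steps were also run on data simulated from the recovered lengths and depths, without families and with planted changes of more than 2-fold. That run does not show whether differences as small as those of the members would be found. Family numbers mark relatives in the study, and the deviations of the 16 pairs of relatives from their group means correlated by -0.407 to 0.473, above 0.1 in 7 pairs and in 5 of the 6 bonded and bond-disrupted sibling pairs. The alternatives were pseudocounts of 0.1 and 0.01, no filter, a filter on the mean, a trend, 2 groups only, quantile normalization, a median-ratio factor, a family block, an adjusted p under 0.05, no fold minimum, the deposited values, an additive diagonal term, voom on reads, and leaving out each animal. Genes were named as the members, the highest gene of each list, called genes, and the 5 most like Eln; exceptions are stated. The members and lists were chosen with earlier results of these data known. Genes of the lists whose length was not settled were left out.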

Additional observations from a re-analysis of the deposited data

Results flagged for a closer look

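In 3 of 27 combinations of a member and a group, 1 animal stood apart from the rest by Dixon's criterion on log2(FPKM + 1), and chance gives about 1 in 20. Eln was 20.9 FPKM in BD6, while the other bond-disrupted animals lay between 44.7 and 50.4. Mfap4 was 1337 FPKM in BD2, against 2434 to 3158 in the other bond-disrupted animals. Fbln1 was 15 FPKM in V3, against 10.2 to 11.3 in the other virgins.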

How the results depend on the processing

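No member was called under any alternative, and 0 genes were called in each comparison under all but 2 of them. The deposited values called 40 genes in bond-disrupted against bonded animals, 113 in virgin against bonded and 35 in virgin against bond-disrupted animals, with 0 members among them. Leaving out each animal in turn gave 0 to 1 genes in the first 2 comparisons, the 1 gene being LOC128094431 without B4, and 0 in the third. With the family number as a replicate block, 0 genes and 0 members were called, and 0 other genes of the pathway. Of 756 log2 differences of members under alternatives other than the deposited values, all moved by less than the within-group SD, the lowest adjusted p was 0.525 (Ltbp4 in bond-disrupted against bonded animals without BD2), and 42 of 783 fits, the main ones included, had the opposite sign. A member had an unadjusted limma p under 0.05 in 11 of these fits. The deposited values moved 21 of 27 by more. Of the 9 correlated pairs, 0 passed with the deposited values and all 9 with a median-ratio factor or a pseudocount of 0.1. When 1 animal was left out, 6 to 10 pairs passed, of which 6 to 9 were among the original 9. Only 1 (Eln with Fbn1) passed when values were permuted only within families, a replicate block added after seeing the data. Of the 8 neighbouring pairs in the order of levels, 6 kept their order with the deposited values.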
